A study of Mus musculus with 4 samples.

Results

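Protein tyrosine phosphatases remove phosphate from tyrosine residues and so set how long kinase signals last in blood cells. The 9 genes described here are phosphatases of myeloid cells: the receptor-type genes Ptprj, Ptprc, Ptpre, Ptpro, Ptpra and Ptprs and the cytosolic genes Ptpn6, Ptpn11 and Ptpn22. They were taken by exact symbol from the 53801 genes of the count table, where each symbol had a single gene ID, and all 9 were among the 17462 genes that passed the filter on low counts. The group was chosen by a value measured in these data, the DKK1 contrast of Ptprj, which was called lower, and the other genes were added for their family and myeloid expression. The difference between DKK1 and PBS is therefore a description for all 9 genes and was not used as a test. The comparison between the cell preparations was not used to choose the genes, though the lists of other phosphatases and partner genes were drawn up with earlier results of these data known.

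RNA was sequenced from osteoclast precursor cells, myeloid cells from which the multinucleated cells that resorb bone form, of wild-type C57BL/6 mice. The 2 preparations of cells (precursor cells 1 and 2) each received DKK1 at 200 ng/ml or PBS, the buffer control, for 3 h. This gave 4 libraries and 2 pairs. The sample titles number the preparations and do not say how many mice each came from. DKK1, or Dickkopf-1, is a secreted protein that blocks canonical Wnt signals. No preparation was replicated, and the sources used here give neither the age of the mice nor how the precursors were obtained. The libraries held 41163663 to 53537927 counts. Among 10 monocyte and macrophage markers, none was at 0, and the macrophage gene Adgre1 stood at 2109 to 2149 CPM (counts scaled to library size) in every library. Of 10 osteoclast markers, 8 were tested. Acp5 stood at 329.4 to 475.5 CPM, Mmp9 at 276.0 to 586.1 CPM, Itgb3 at 251.8 to 331.1 CPM and Nfatc1 at 40.2 to 50.8 CPM, while the fusion gene Dcstamp was at 0.345 to 1.7 CPM and Calcr at 0 in all libraries.

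In the receptor-type family, the extracellular part senses neighbouring cells or matrix and the cytoplasmic part carries the phosphatase domain. Ptprj encodes CD148 (DEP-1) and Ptprc encodes CD45. In macrophages both are known to remove the inhibitory tail phosphate of Src family kinases, which then can signal from immune receptors. Ptpn6 encodes SHP-1, an inhibitor recruited by ITIM receptors, and Ptpn11 encodes SHP-2, which carries growth factor signals. Ptpn22 encodes a phosphatase that works with the kinase Csk against Src family kinases. Ptpro and Ptpre both have short forms known from osteoclasts.

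The genes share the catalytic loop, in which a cysteine makes the bond to the phosphate and an arginine holds it. The loop's DNA is shown to compare the genes at the site that defines the family, taken from the GENCODE M21 transcript with the longest open reading frame. Each line runs 5′ to 3′ over 33 bases, and capitals mark the codons of the cysteine and the arginine.
Ptprj: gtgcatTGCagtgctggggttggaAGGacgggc
Ptprc: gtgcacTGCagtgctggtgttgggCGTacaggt
Ptpre: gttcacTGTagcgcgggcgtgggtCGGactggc
Ptpro: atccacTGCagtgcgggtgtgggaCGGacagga
Ptpra: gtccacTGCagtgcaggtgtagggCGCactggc
Ptprs: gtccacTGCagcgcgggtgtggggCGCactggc
Ptpn6: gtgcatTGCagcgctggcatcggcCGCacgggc
Ptpn11: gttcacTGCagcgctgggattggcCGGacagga
Ptpn22: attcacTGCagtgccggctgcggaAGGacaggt

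Over these 33 bases, Ptprc and Ptpn6 each shared 26 bases with Ptprj, and Ptpre, Ptprs and Ptpn22 shared 23, the fewest of the 9 genes. At the level of the 11 encoded residues, Ptprc, Ptpre, Ptpra and Ptprs were the same as Ptprj, Ptpro, Ptpn6 and Ptpn11 matched it at 10 residues, and Ptpn22 at 9. The pattern histidine, cysteine, any 5 residues and arginine occurred 2 times in the reading frames of Ptpre, Ptpra and Ptprs, and 1 time in each of the other 6 genes. A search for near-identical transcripts found none between the 9 genes.

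Ptprj (ENSMUSG00000025314) lies on the minus strand of chromosome 2 from 90429754 to 90580647 on mm10 (GRCm38), and all 9 genes are annotated as protein-coding. The 198 bases upstream of its annotated start, chr2:90580648-90580845 on the minus strand, come from RefSeq's promoter table (GRCm38.p6). They are shown because Ptprj is the gene that was lower with DKK1, and capitals mark the CG dinucleotides.
Ptprj upstream: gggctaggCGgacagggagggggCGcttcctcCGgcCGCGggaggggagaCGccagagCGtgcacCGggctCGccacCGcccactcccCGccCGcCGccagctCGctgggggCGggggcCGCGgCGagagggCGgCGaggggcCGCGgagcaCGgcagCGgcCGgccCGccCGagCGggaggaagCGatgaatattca

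This stretch holds 29 CG dinucleotides and 79.3% G or C. The window of 300 bases that contains it also has 79.3%, against a median of 52.7% over the 32851 promoter windows of 300 bases in the table. The other start window of Ptprj, chr2:90479125-90479424, holds 6 CG dinucleotides and 45.0% G or C. All 9 genes matched the table, with 15 start windows in all. The TCF/LEF letters CTTTGAT, searched on both strands, were in 0 of the 15 windows and in 3.73% of all windows. The PU.1 letters GAGGAAGT were also in 0 of the 15 (3.2% of all windows), and the AP-1 letters TGANTCA were in 1, a start of Ptpre (7.81% of all windows). None of these 3 motifs overlaps another. The absence of these letters says nothing about binding of the factors elsewhere.

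Per unit of length, Ptpn6 stood far above the other genes in every library. Its deposited FPKM (fragments scaled to gene length and library size) was 199.5 and 209.9 in precursor cells 1 (PBS, then DKK1) and 261.7 and 242.7 in precursor cells 2. Ptprj was next on this scale, at 74.1, 51.0, 66.5 and 45.5 FPKM in the same order of libraries. Ptprc had 19.2, 23.6, 34.1 and 34.7 FPKM, and Ptpn11 28.03, 28.97, 19.94 and 20.84 FPKM. Ptpn11 was above Ptprc in precursor cells 1 and below it in precursor cells 2. Ptpra (12.9 to 16.3 FPKM) and Ptpre (8.13 to 14.98 FPKM) followed. The ranges of Ptpre and Ptpro (5.34 to 10.3 FPKM) overlapped, as did those of Ptprs (2.27 to 4.51 FPKM) and Ptpn22 (1.93 to 3.46 FPKM).

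The length behind these values matters for Ptprc. The deposited FPKM and counts imply a length for each gene that was 1.105 to 1.113 times its annotated exons merged over all transcripts, retained introns included. For Ptprc that merged length is 18313 bases, 3.61 times its longest coding transcript of 5074 bases. For Ptprj the merged length is 8352 bases, only 1.09 times its longest coding transcript. When counts were divided by the longest coding transcript instead, Ptprc reached 76.9, 94.1, 136.4 and 138.9 CPM per kb and Ptprj 90.0, 61.7, 80.6 and 55.3. On that scale Ptprj was above Ptprc only in the PBS library of precursor cells 1 and below it in the other 3. By the mean over the 4 libraries, Ptprc then ranked 2 and Ptprj 3, the reverse of their order by FPKM, and the ranks of the other 7 genes were the same on both scales. Which transcripts the cells made is not known from gene counts, so both scales are approximations.

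**Figure D1:**
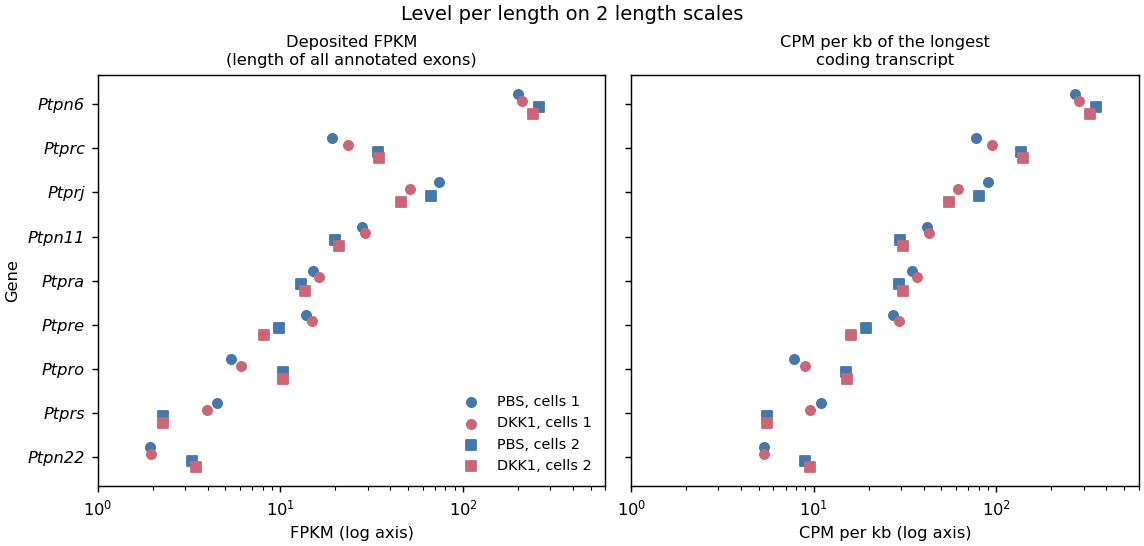
Level of each gene in the 4 libraries, as deposited FPKM (left) and as CPM per kilobase of the longest coding transcript (right), both on log axes. Blue points are PBS and red points DKK1, circles are precursor cells 1 and squares precursor cells 2. Ptpn6 is highest on both scales, while Ptprc moves above Ptprj in 3 of 4 libraries on the right.

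The first comparison asked what DKK1 changes in the precursor cells. For precursor cells 1, Ptprj had 36575 counts with PBS and 25206 with DKK1, against 25313 and 19417 for precursor cells 2. Scaled to library size, this was 647.6 and 444.2 CPM in precursor cells 1 and 654.8 and 446.6 CPM in precursor cells 2. Both DKK1 libraries lay below both PBS libraries, and the values of the pairs nearly coincided. The level was 1.46-fold lower with DKK1 (log2 -0.55, SE 0.04, 95% CI -0.65 to -0.44, n = 2 pairs), with log2 differences of -0.54 and -0.55 in the pairs. In all, 0.0515% of the tested genes were called in either direction (0.0115% lower) by edgeR's quasi-likelihood test (Benjamini-Hochberg adjusted p under 0.05), and in 8.31% both DKK1 libraries lay below both PBS libraries. Ptprj owes its place here to that call (adjusted p = 0.0469), which is not evidence apart from the choice.

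The call sits close to its threshold and depended on the model, while the size of the difference did not. All fits drew on the same counts that led to the choice of Ptprj, so their likeness is no further evidence. Over the 12 alternative fits the log2 value of Ptprj lay between -0.55 and -0.54, and 3 of the 12 called it. Without the replicate block edgeR's adjusted p was 1, with legacy quasi-likelihood 0.131, with upper-quartile scaling 0.0601, with no filter on low counts 0.662 and with limma-voom 0.0962.

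Some markers of other blood cells were also lower with DKK1, and their part in the result for Ptprj was not tested. Over the 8 listed erythroid markers the summed level was 76.0 CPM with PBS and 53.4 with DKK1 in precursor cells 1, then 125.4 and 97.8 CPM in precursor cells 2. Of the 5 that were tested, 4 were lower in both pairs, among them Hba-a1 (log2 -0.53 and -0.39) and Hbb-bs (log2 -0.53 and -0.33). Car1 was at 0 in all libraries. The B cell markers summed to 329.7 and 250 CPM in precursor cells 1, then 172.8 and 173.6 CPM in precursor cells 2. Of the 10, 5 were lower in both pairs, among them Cd79a (log2 -0.64 and -0.31) and Fcmr (log2 -0.87 and -0.91), and none was at 0 throughout. The median log2 value was -0.42 for the tested erythroid markers and -0.49 for the B cell markers, and edgeR called 0 of either list (3 and 5 with an unadjusted p under 0.05).

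The authors' deposited tables, 1 library against 1, list log2 ratios of -0.54 and -0.55 for Ptprj with false discovery rates of 1.01e-14 and 6.35e-15. The same tables mark Ptprj as not significant in either pair. With 1 library on each side, those rates do not measure the spread between preparations.

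Ptprj has 3 near-identical unprocessed pseudogenes, Gm13768, Gm13767 and Gm18953, which together with it leave Ptprj 99.28% of the summed counts. The counts with PBS and then DKK1 of Gm13767 were 59 and 69 in precursor cells 1, then 0 and 311 in precursor cells 2. Gm18953 had 18 and 41, then 0 and 14, and Gm13768 62 and 88, then 52 and 61. Each of the 3 models had more counts with DKK1 in both pairs, where Ptprj had fewer. Summed with them, Ptprj had a log2 value of -0.53.

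**Figure D2:**
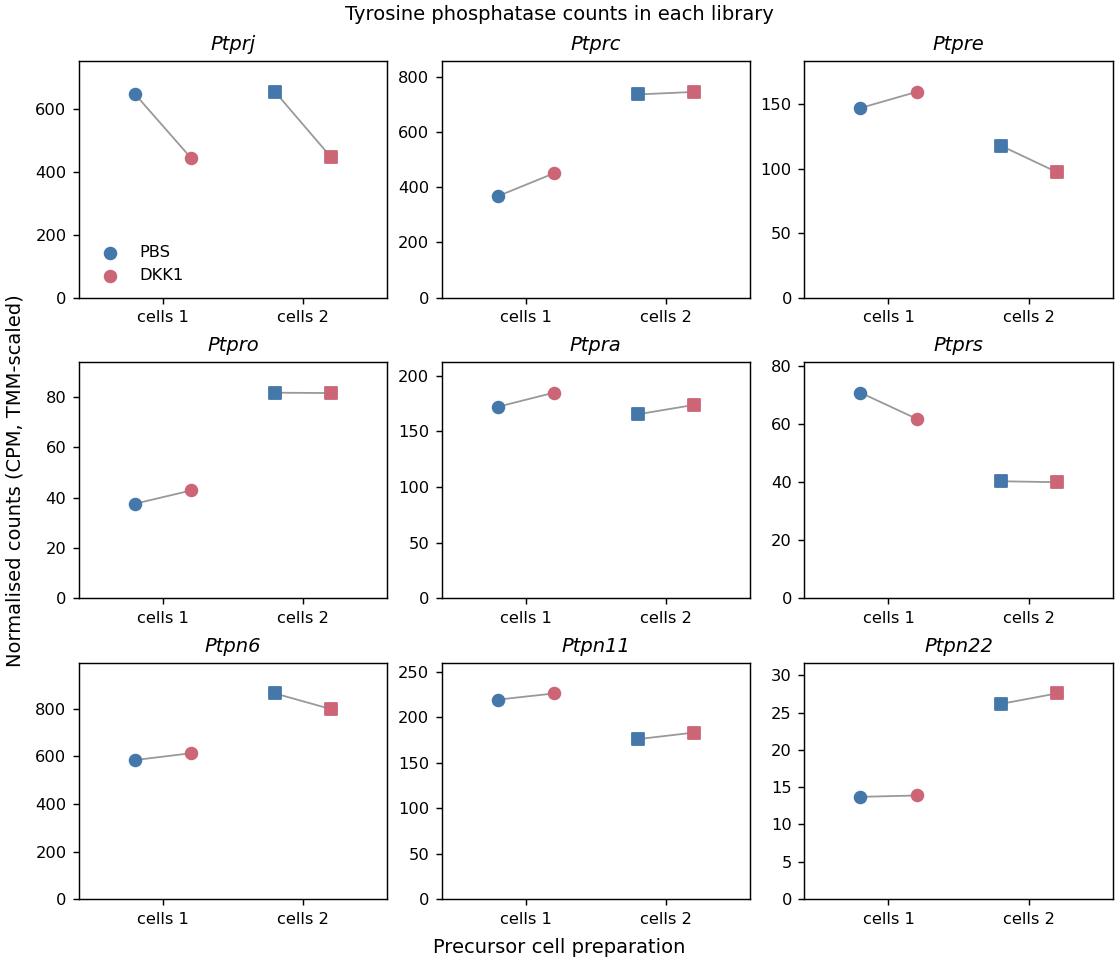
Normalised counts (CPM after TMM scaling, linear axes from 0) of the 9 genes in each library, with a line joining PBS (blue) and DKK1 (red) within a preparation. Ptprj is lower with DKK1 by about the same step in both preparations, whereas most of the other genes differ mainly between preparations.

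The other receptor-type genes did not share this pattern. Ptprc, the CD45 gene, had 20767 counts with PBS and 25564 with DKK1 in precursor cells 1, then 28490 and 32434 in precursor cells 2. Its log2 differences were 0.29 and 0.02, with a fitted value of 0.15 (95% CI -0.02 to 0.33). The difference was larger in precursor cells 1, and the libraries of the 2 treatments overlapped. Ptpre had 8303 and 9050 counts, then 4559 and 4234, with log2 differences of 0.12 and -0.28 (fitted -0.07, 95% CI -0.33 to 0.18). The pairs of Ptpre went in opposite directions.

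Ptpro, the receptor also known from kidney podocytes, had 2124 and 2433 counts, then 3160 and 3548. Its log2 differences were 0.19 and -0.002 (fitted 0.09, 95% CI -0.12 to 0.30). Ptpra, a ubiquitous activator of Src, had 9717 and 10482 counts, then 6392 and 7553, with log2 differences of 0.10 and 0.07 (fitted 0.09, 95% CI -0.05 to 0.23). Ptpra was the only one of the 9 genes with both DKK1 libraries above both PBS libraries, a pattern found in 7.93% of tested genes. Ptprs, a receptor for proteoglycans, had 4000 and 3510 counts, then 1559 and 1739, with log2 differences of -0.20 and -0.01 (fitted -0.11, 95% CI -0.33 to 0.10).

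The cytosolic genes lay close to 0. Ptpn6 had 33025 and 34806 counts, then 33422 and 34723, with log2 differences of 0.07 and -0.11 (fitted -0.02, 95% CI -0.16 to 0.11). Ptpn11 had 12407 and 12850 counts, then 6810 and 7973, with log2 differences of 0.04 and 0.06 (fitted 0.05, 95% CI -0.08 to 0.18). Ptpn22 had 774 and 788 counts, then 1011 and 1198, with log2 differences of 0.02 and 0.08 (fitted 0.05, 95% CI -0.22 to 0.32). For these 3 genes the intervals leave room for changes of up to 0.32 on the log2 scale, which is below the change of Ptprj.

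Of the 9 genes, 6 had the same sign in both pairs, against 51.7% of all tested genes. Their median log2 value was 0.05, and that of all tested genes was -0.001.

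**Figure D3:**
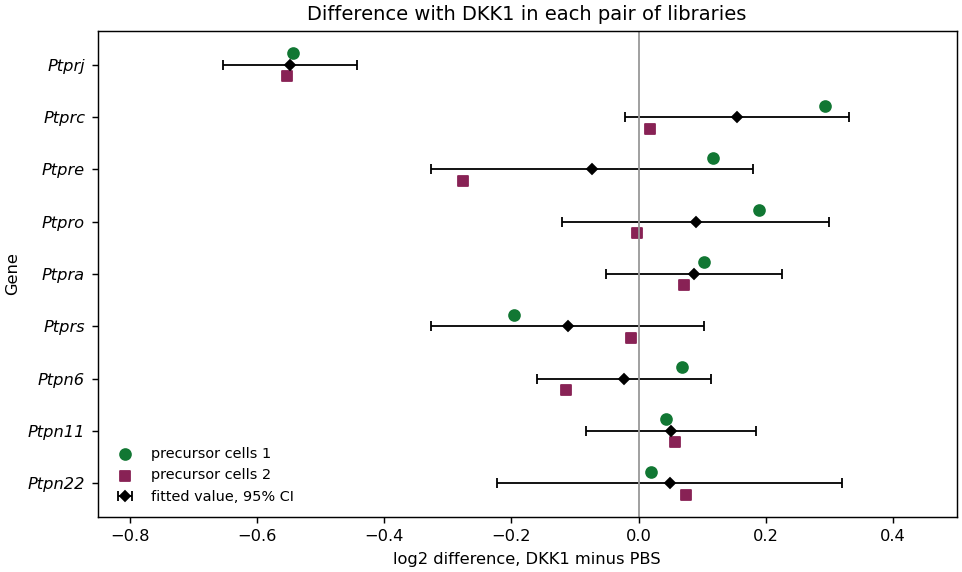
Difference between DKK1 and PBS on the log2 scale for the 9 genes, as the value in precursor cells 1 (green circles), in precursor cells 2 (purple squares) and as fitted over both pairs (black diamonds with 95% confidence intervals). The points of Ptprj lie together near -0.55, and for Ptpre, Ptpro and Ptpn6 the pairs have opposite signs.

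Ratios within a library do not depend on how libraries were scaled. The ratio of Ptprj to Ptprc counts was 1.76 with PBS and 0.986 with DKK1 for precursor cells 1, then 0.889 and 0.599 for precursor cells 2. It was lower with DKK1 in both pairs, and the lowest and the highest of the 4 ratios came from different preparations. Ptprj made up 44.9% of the counts of the 6 receptor-type genes with PBS in precursor cells 1 (95% Wilson interval 44.5 to 45.2) and 33.1% with DKK1 (32.7 to 33.4). In precursor cells 2 the shares were 36.4% (36.1 to 36.8) and 28.2% (27.8 to 28.5). These intervals cover counting error only. The ratios to Ptprc and the shares reuse the Ptprj counts that led to its choice, so they too are a description. The ratio of Ptpn6 to Ptpn11 counts was 2.66 and 2.71 for precursor cells 1, against 4.91 and 4.36 for precursor cells 2, so it differed mainly between preparations.

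The tested genes whose profile over the 4 libraries lay nearest to Ptprj were Ythdf3, Ssr2, Ccnd3, Dgcr2 and Zfp638. Nearness was the Euclidean distance of centred log2 CPM among 3926 other genes with a mean of at least 50 CPM, and the distances were 0.17 to 0.24. The fitted log2 values with DKK1 were -0.39 for Ythdf3, which encodes a reader of methylated adenosine in RNA, and -0.65 for Ccnd3, which encodes cyclin D3. Those of Ssr2, Dgcr2 and Zfp638 were -0.43, -0.35 and -0.41. With 4 libraries, such a likeness is a description.

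The rest of the classical tyrosine phosphatase family was taken as 29 further genes, of which 21 were tested. With DKK1, 0 of the 21 were called by edgeR (0 with an unadjusted p under 0.05), and DESeq2 and limma-voom also called 0. Among the receptor types, Ptprm and Ptprb had the smallest p. Ptprm, an adhesion receptor, had 523 and 671 counts, then 70 and 157 (log2 0.50, 95% CI -0.02 to 1.02). Ptprb, a phosphatase of endothelial cells, had 18 and 40 counts, then 25 and 64 (log2 1.17, 95% CI -0.18 to 2.51). Their edgeR adjusted p was 0.959 each. Of the cytosolic types, Ptpn13 (log2 -1.13, 95% CI -2.67 to 0.42) and Ptpn23 (log2 -0.10, 95% CI -0.27 to 0.07) had the smallest p, and edgeR's adjusted p was 0.959 for each.

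Among 48 genes that act with these phosphatases, edgeR called 0 with DKK1 (1 with an unadjusted p under 0.05). DESeq2 called 1, Lair1, and limma-voom 0. Lair1, an inhibitory collagen receptor that recruits SHP-1, had 1540 and 2511 counts, then 4360 and 7178 (log2 0.62, 95% CI 0.43 to 0.80, edgeR adjusted p = 0.166). Both DKK1 values were higher than the PBS value of their own pair. In the Src family and Csk list the median log2 value over 12 genes was -0.06. Blk, a Src family kinase of B cells, had the smallest p there (log2 -0.45, 95% CI -0.98 to 0.08), followed by Yes1 (log2 0.96, 95% CI -0.81 to 2.73).

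In the list of Syk, Tec and their adaptors the median over 11 genes was 0.05. Syk itself had a log2 value of -0.05 (95% CI -0.15 to 0.05), and Tyrobp, the adaptor DAP12, 0.06 (95% CI -0.08 to 0.20). In the list of 10 ligands and substrates of Ptprj the median was -0.01. Thrombospondin-1 (Thbs1), a ligand of CD148, had a log2 value of -0.09 (95% CI -0.20 to 0.01), and the ligand Sdc2 0.70 (95% CI -0.25 to 1.65). In the list of 15 docking proteins and ITIM receptors the median was -0.01, and Clec12a followed Lair1 by p (log2 0.11, 95% CI -0.01 to 0.22).

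The second comparison asked how the phosphatases differ between the 2 preparations, with treatment as a term of the same model. In contrast to the comparison of treatments, 7 of the 9 genes were called, 4 higher and 3 lower in precursor cells 2. Over all tested genes 33.9% were called, 17.9% higher and 15.9% lower, and the libraries of the preparations did not overlap for 69% of genes. Calls are thus common in this comparison. The animal source of a preparation, its cells and their handling cannot be told apart, since each preparation was made once. The spread behind the p-values comes from the disagreement of the pairs over DKK1, which edgeR moderates for each gene with that of other genes.

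The genes that were higher in precursor cells 2 were Ptpro, Ptpn22, Ptprc and Ptpn6. Ptpro had 37.6 and 42.9 CPM in precursor cells 1 and 81.7 and 81.6 CPM in precursor cells 2, a 2.03-fold difference (log2 1.02, SE 0.09, edgeR adjusted p = 0.000505). Ptpn22 had 13.7 and 13.9 CPM against 26.2 and 27.6 CPM, a 1.95-fold difference (log2 0.96, SE 0.11, edgeR adjusted p = 0.00171). The libraries of the preparations did not overlap for either gene, and the treatments within each preparation were close together. Ptprc had 367.7 and 450.5 CPM against 736.9 and 746.0 CPM, a 1.82-fold difference (log2 0.87, SE 0.07, edgeR adjusted p = 0.000501). Ptpn6 had 584.7 and 613.4 CPM against 864.5 and 798.6 CPM, a 1.39-fold difference (log2 0.47, SE 0.06, edgeR adjusted p = 0.00189).

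The genes that were lower in precursor cells 2 were Ptprs, Ptpre and Ptpn11. Ptprs had 70.8 and 61.9 CPM in precursor cells 1 and 40.3 and 40.0 CPM in precursor cells 2, a 1.65-fold difference (log2 -0.72, SE 0.09, edgeR adjusted p = 0.00213). Ptpre had 147.0 and 159.5 CPM against 117.9 and 97.4 CPM (log2 -0.51, SE 0.10, edgeR adjusted p = 0.0131). Ptpn11 had 219.7 and 226.4 CPM against 176.2 and 183.4 CPM (log2 -0.31, SE 0.05, edgeR adjusted p = 0.00795). SHP-1 and SHP-2 genes thus went in opposite directions between the preparations, as did Ptprc and Ptprs among the receptors. The call of Ptpre ended without the DKK1 library of precursor cells 2 (edgeR adjusted p = 0.065) and that of Ptpn11 without the PBS library of precursor cells 2 (0.0619), both fitted without the treatment term.

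Ptprj and Ptpra were not called. The log2 value of Ptprj was 0.01 (95% CI -0.09 to 0.12, edgeR adjusted p = 0.86), so a difference between the preparations beyond 0.12 on the log2 scale lies outside its interval. For Ptpra it was -0.07 (95% CI -0.21 to 0.07, edgeR adjusted p = 0.371).

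**Figure D4:**
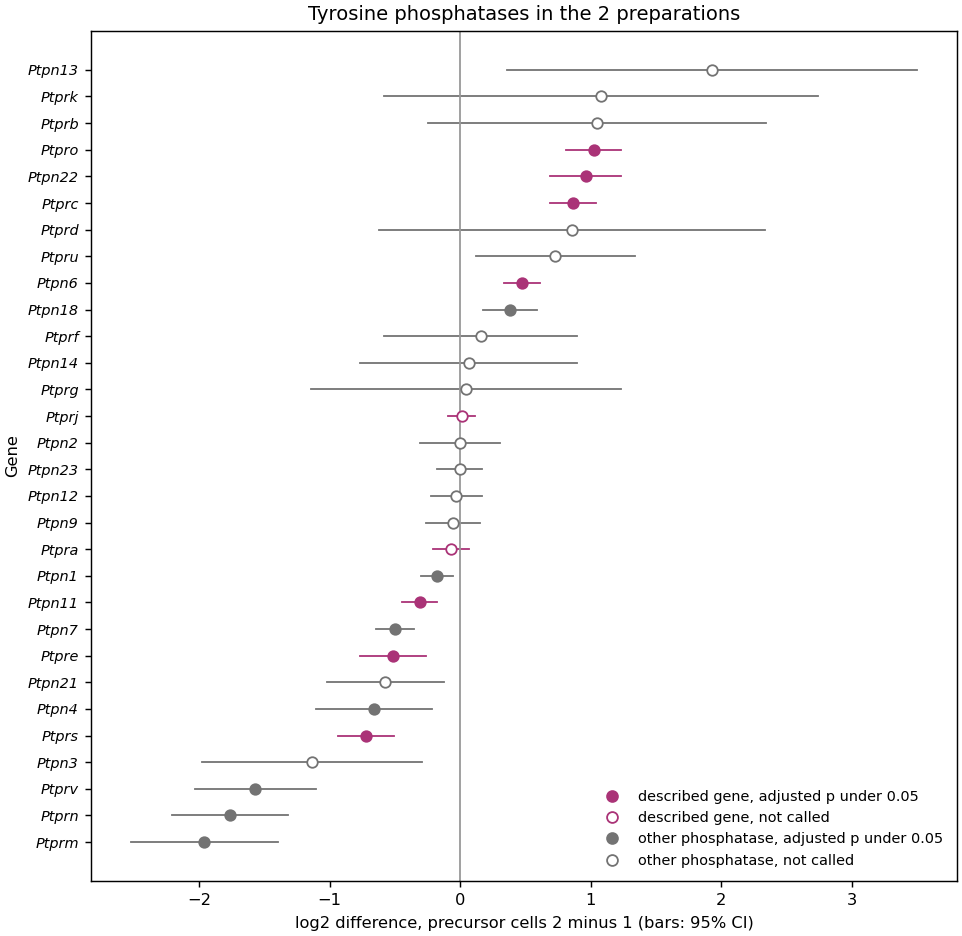
Difference between precursor cells 2 and 1 on the log2 scale for the 30 tested tyrosine phosphatases, with 95% confidence intervals, ordered by size. Purple marks the 9 described genes and grey the others, and filled points passed edgeR's test. Ptpro, Ptpn22, Ptprc and Ptpn6 lie to the right of 0 and Ptprs, Ptpre and Ptpn11 to the left, with Ptprj at 0.01.

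Among the 21 other phosphatases tested, edgeR called 7 between the preparations, 1 higher and 6 lower in precursor cells 2. The receptor types Ptprm (3.89-fold lower), Ptprn (3.39-fold lower) and Ptprv (2.97-fold lower) had edgeR adjusted p-values of 0.00186, 0.00111 and 0.00204. Their levels were low, at 1.81 to 11.8 CPM for Ptprm, 3.06 to 12.7 CPM for Ptprn and 3.96 to 13.4 CPM for Ptprv. The cytosolic Ptpn7 (log2 -0.50), Ptpn4 (log2 -0.66) and Ptpn1 (log2 -0.18) were lower, and Ptpn18 (log2 0.38) was higher (edgeR adjusted p = 0.00195, 0.0373, 0.0425 and 0.0184). Ptpn7 is a leukocyte phosphatase of MAP kinases, and Ptpn1 encodes PTP1B.

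Among the 48 partner genes, 29 were called between the preparations, 21 higher and 8 lower in precursor cells 2. Of the Src family and Csk list, 4 were higher and 3 lower. Csk, the kinase that acts with Ptpn22, was 1.40-fold higher (edgeR adjusted p = 0.0019). Cblb, a ubiquitin ligase, was 1.67-fold higher, and Blk was 20.7-fold lower (adjusted p = 0.00186 and 0.000243). Of the docking proteins and ITIM receptors, 7 were higher and 2 lower, with Lair1 3.92-fold, Fcgr2b 2.52-fold, Pirb 2.37-fold and Cd300a 1.94-fold higher. All of these receptors can recruit phosphatases of the SHP family or the lipid phosphatase SHIP.

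In the Syk and Tec list 6 were higher and 1 lower in precursor cells 2, led by Fcer1g (1.69-fold), Plcg2 (1.48-fold), Vav1 (1.41-fold) and Tec (1.77-fold). In the list of ligands and substrates of Ptprj 4 were higher and 2 lower. Kdr, the VEGF receptor 2, was 6.70-fold higher, Csf1r, the M-CSF receptor, 1.29-fold and Thbs1 1.39-fold higher, and Ctnnd1, which encodes p120-catenin, 1.25-fold lower. The levels of Thbs1 were 913.6 and 824.6 CPM in precursor cells 1 and 1225 and 1193 CPM in precursor cells 2.

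Markers of other cells and states moved with the preparations too, and their part in these differences was not tested. All 12 interferon-stimulated genes were called higher in precursor cells 2 (summed level 1487 and 1689 CPM against 10690 and 10640 CPM). Of 10 neutrophil markers 9 were called higher and 1 lower (5331 and 5193 against 9696 and 9810 CPM), and of 10 dendritic cell markers 5 were higher and 3 lower (1182 and 1067 against 4100 and 3971 CPM). Of 10 B cell markers 8 were called lower and 1 higher (329.7 and 250 against 172.8 and 173.6 CPM). T and NK cell markers summed to 59.7 to 93.8 CPM, erythroid markers to 53.4 to 125.4 CPM and stromal markers to 75.6 to 127.6 CPM. The most abundant markers of these lists were Irf7 and Rsad2, Ngp and S100a9, Cd74 and Bst2, Blnk and Cd22, Il7r and Nkg7, Hba-a1 and Hbb-bs, and Col1a1 and Col1a2, in that order of lists. The monocyte and macrophage markers summed to 32150 and 31920 CPM against 22500 and 23060 CPM, with 5 called higher and 3 lower, and were led by Lyz2 and Csf1r. The osteoclast markers, led by Mmp9 and Acp5, summed to 1054 to 1303 CPM. In bulk RNA, fewer cells of a type and less RNA per cell cannot be told apart.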

How the data were processed

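The submitters' processing notes name fastp, HISAT2 and mm10; the counting program is not given there. Counts were deposited as whole numbers per gene. Per the file headers, the authors' 2 deposited comparison tables hold log2 ratios (1 library against 1), p-values whose test is not named, and FPKM values.

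Libraries were paired by number: within each number, deviations from the treatment means had a correlation of 0.726. The principal fit used edgeR 4.0.16 with its quasi-likelihood test (R 4.3.3, TMM, filterByExpr) with preparation and treatment as terms (1 residual degree of freedom). Adjusted p-values are Benjamini-Hochberg over 17462 genes. Log2 differences within a pair used a prior count of 2. Alternatives used DESeq2 1.42.0, limma 3.58.1, other scalings and filters, no block, and leaving out each library. Level per coding transcript was added after seeing the data.

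Similar transcripts were those that BLAST 2.17.0 matched at 95% identity or more, for 100 or more bases and 50% or more of the shorter one. Antisense models overlap exons of Ptpre, Ptpra and Ptpn6, which hold 93.39%, 99.79% and 97.35% of the summed counts; strandedness is not stated.

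The members and lists were chosen with earlier results of these data known. Named were all 9 members, up to 4 called genes of each other list by p (2 where none is called), the 2 most abundant markers of each list and the 5 genes nearest to Ptprj. Not every gene that this rule names is reported here. The pseudogenes, Adgre1, Itgb3, Nfatc1, Calcr, Dcstamp, Cd79a and Fcmr were named after their values were seen. In simulated data for DKK1 against PBS (17462 genes, 200 changed) 68.5% of 1.5-fold, 81% of 2-fold and 92.2% of 4-fold changes were recovered. Of 163 calls, 3 were false. The simulation gave all genes the same spread (dispersion) and each changed gene the same DKK1 effect in both preparations. It therefore cannot tell what share of real changes the 4 libraries would reveal.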

Additional observations from a re-analysis of the deposited data

Results flagged for a closer look

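For 3 of the 9 genes the difference between DKK1 and PBS had opposite signs in the pairs, with 1 pair in each preparation, and the difference between the pairs was not tested. Ptpre had a log2 difference of 0.117 in the pair of precursor cells 1 and of -0.276 in that of precursor cells 2. Ptpro had 0.189 and -0.00235, and Ptpn6 0.069 and -0.114. Of all tested genes, 51.7% had the same sign in both pairs.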

How the results depend on the processing

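With DKK1, the count of called genes was 9 by the main model. It was 0 without the replicate block (116 with an unadjusted p under 0.05) and 0 with no filter on low counts (911), 46 with DESeq2, 5 with upper-quartile scaling, 17 with the stricter filter, 3 with legacy quasi-likelihood, 2 with limma-voom, and 0 each time 1 library was left out, which also removes the block (84 to 129 with an unadjusted p under 0.05, edgeR). Of the partner genes DESeq2 called 1 (Lair1) and the main model 0. Between the preparations, 5913 genes were called, 3509 with no filter and 3194 to 4574 with 1 library left out (3346 without the PBS library of precursor cells 2, 3194 without the DKK1 library of precursor cells 2). Of the other phosphatases 7 were called, 4 with no filter and 4 to 5 with 1 library left out. Of the members, 7 were called in every setting except 3 in which 6 were: with no filter, without the PBS library of precursor cells 2, and without the DKK1 library of precursor cells 2. The missing calls were Ptpre with no filter (adjusted p = 0.0745) and those given above. Fits without the block leave preparations unbalanced when a library is dropped, so they cannot decide on DKK1. The upper-quartile fit moved the split of calls between preparations to 2798 higher and 3144 lower, from 3129 and 2784. Depth limits the genes with few counts: the SE of the log2 value with DKK1 was 0.54 for Ptprb (18 to 64 counts) and 0.62 for Ptpn13 (5 to 42 counts), against 0.04 for Ptprj.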
